A study of Mus musculus with 47 samples.

Results

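The 10 genes followed here mark endothelium and the progenitors of blood and were chosen by symbol: Pecam1, Cdh5, Kdr, Tek, Tie1, Flt1, Eng, Tal1, Lmo2 and Etv2. They are 10 of the 24507 genes in the tables of embryoid bodies and unsorted cells, and all 10 were found there and among the 26182 genes of the sorted cells. RNA came from E14Tg2A, a mouse embryonic stem cell (ESC) line, in which Tdg had been knocked down by siRNA (siTdg), or from its control arm (siC). Both arms carry no other genetic change in the labels, and per the growth protocol ESCs were kept without serum, in N2B27 with PD0325901, CHIR99021 and LIF. The groups were ESCs at 48 h and at 96 h, ESCs sorted into G1 and G2M, and day 11 embryoid bodies (EBs, clumps of differentiating ESCs), each with siC and with siTdg and each with 2 libraries. Tdg encodes thymine DNA glycosylase, an enzyme that removes thymine from mismatches and oxidised 5-methylcytosine from DNA. As a model the design rests on 1 cell line and on an siRNA, which acts for a limited time. Whether the 2 libraries of a group were grown apart is not stated in the labels, so each p-value reflects only how these libraries scatter, possibly for technical reasons.

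Endothelial and blood cells arise from mesoderm, partly through a shared precursor that carries Kdr, the main receptor for VEGF-A. In that precursor Etv2, an ETS family transcription factor, acts briefly and upstream, and Tal1 and Lmo2 form part of a DNA-binding complex with Ldb1 and GATA factors. Flt1 is a second VEGF receptor that largely acts as a decoy, Tek is the receptor for angiopoietins and Tie1 its related partner, and Eng is a co-receptor for ligands of the BMP and TGF-beta family. Pecam1 and Cdh5 encode adhesion proteins of endothelial junctions. Pecam1 and Eng are also carried by other cells, and Pecam1 is a known surface protein of mouse ESCs.

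Promoter windows, from 250 bases before to 50 after the start of the gene, were taken from RefSeq (GRCm38.p6) for 7 of the 10 genes, with 2 starts for Tal1 and 300 bases each. The windows of 4 genes are shown because their genes stand for the different behaviours described below. Kdr and Flt1 differed between the libraries of a group. Tek was the receptor whose libraries overlapped between unsorted ESCs and EBs, though not between sorted ESCs and EBs. Tal1 ran the other way from Kdr and Flt1. They lie at chr5:75978406-75978705 on the minus strand for Kdr, chr5:147725962-147726261 on the minus strand for Flt1, chr4:94739039-94739338 on the plus strand for Tek and chr4:115056176-115056475 on the plus strand for the first start of Tal1. Capitals mark any match, on either strand, to a short motif. The ETS factor motif was spelled CCGGAA. A second ETS factor motif was spelled CAGGAAG. The motif of GATA factors was spelled AGATAA. The E-box motif, bound by Tal1 with its partners, was spelled CAGCTG.
Kdr: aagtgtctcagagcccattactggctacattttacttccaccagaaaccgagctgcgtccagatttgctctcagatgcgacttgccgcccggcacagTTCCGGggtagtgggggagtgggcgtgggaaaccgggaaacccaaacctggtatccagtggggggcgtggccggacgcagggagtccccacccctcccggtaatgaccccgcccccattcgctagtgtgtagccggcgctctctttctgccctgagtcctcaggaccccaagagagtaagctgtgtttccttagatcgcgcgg
Flt1: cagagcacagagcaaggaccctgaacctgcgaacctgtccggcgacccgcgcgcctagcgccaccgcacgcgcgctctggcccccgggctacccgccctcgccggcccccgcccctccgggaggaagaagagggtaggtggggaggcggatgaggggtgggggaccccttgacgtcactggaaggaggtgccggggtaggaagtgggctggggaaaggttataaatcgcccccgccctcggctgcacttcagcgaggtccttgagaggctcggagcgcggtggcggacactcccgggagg
Tek: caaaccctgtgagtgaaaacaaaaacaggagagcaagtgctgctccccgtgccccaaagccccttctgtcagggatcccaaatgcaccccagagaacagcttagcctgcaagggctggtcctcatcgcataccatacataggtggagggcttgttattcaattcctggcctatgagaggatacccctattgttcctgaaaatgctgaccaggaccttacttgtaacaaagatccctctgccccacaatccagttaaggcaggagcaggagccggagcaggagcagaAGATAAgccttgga
Tal1: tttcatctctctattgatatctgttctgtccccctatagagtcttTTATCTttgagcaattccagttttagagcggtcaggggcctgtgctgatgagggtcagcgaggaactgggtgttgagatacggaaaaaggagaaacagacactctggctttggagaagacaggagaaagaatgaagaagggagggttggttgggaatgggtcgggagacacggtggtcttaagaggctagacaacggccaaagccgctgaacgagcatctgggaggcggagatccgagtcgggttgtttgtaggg
The Kdr window held CCGGAA on the minus strand, with its first base in the printed orientation at -153 from the start. Tek held AGATAA on the plus strand at 37 bases past the start, and the first start of Tal1 held it on the minus strand at -205. The Flt1 window held none of the 4 motifs, nor did those of Tie1, Eng, Etv2 and the second start of Tal1. Among 32851 promoter windows of the same length CCGGAA was found in 14.9%, CAGGAAG in 13.3%, AGATAA in 11.2% and CAGCTG in 16.3%, so matches of this kind are common. Both ETS factor motifs share their core letters, and no match in these windows overlapped another. The Flt1 window was 70.7% G and C with 29 CpG, and the Kdr window 60.7% with 19, against medians of 52.7% and 7 over all windows. The Tek window was 52.0% G and C with 3 CpG.

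Reads assigned to genes ranged from 20818174 to 41433232 over the 20 libraries. Tdg itself was at 44.7 ± 1.80 RPKM with siC and 10.3 ± 4.16 with siTdg in ESCs at 48 h (SD, n = 2 each). At 96 h it was at 40.9 ± 7.24 against 34.3 ± 8.55. Its libraries overlapped at that time, at 35.8 and 46.0 RPKM with siC and 28.2 and 40.3 with siTdg, lower within each library number. The authors' deposited adjusted p for Tdg at 96 h was 0.434. In day 11 EBs Tdg was at 36.8 ± 2.39 against 40.5 ± 4.51, so the labelled knockdown was not seen in Tdg RNA of the EBs. In sorted cells siTdg libraries had 8.59 ± 1.49 in G1 and 10.5 ± 2.62 in G2M, against 57.2 ± 3.43 and 62.4 ± 0.999 with siC. The cell labels matched their markers: 8 pluripotency genes summed to between 1894 and 2782 RPKM in ESCs at 48 h and 96 h, and to between 10.5 and 23.4 RPKM in EBs. The EB libraries differed strongly by library number within both groups. As deposited, EB values were scaled by factors from 0.809 to 1.16 relative to the same reads scaled by each library's own total, against 0.944 to 1.03 in unsorted and sorted ESCs. On that other scale the median of all genes moves to 0.44 (siC) and 0.32 (siTdg) log2 for library 1 minus library 2, from -0.013 and 0.011 as deposited, so both scales are given where they matter.

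Kdr was the highest of the 10 genes in day 11 EBs. It stood at 25.8 and 12.0 RPKM in siC libraries 1 and 2 and at 37.6 and 10.5 RPKM in siTdg libraries 1 and 2. Tek followed, with 5.82 and 6.89 RPKM in siC and 8.37 and 6.16 RPKM in siTdg. The lowest Kdr library was above the highest Tek library, and the lowest Tek library was above every library of the other 8 genes. Both are the receptors through which VEGF-A and angiopoietins act.

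**Figure D1:**
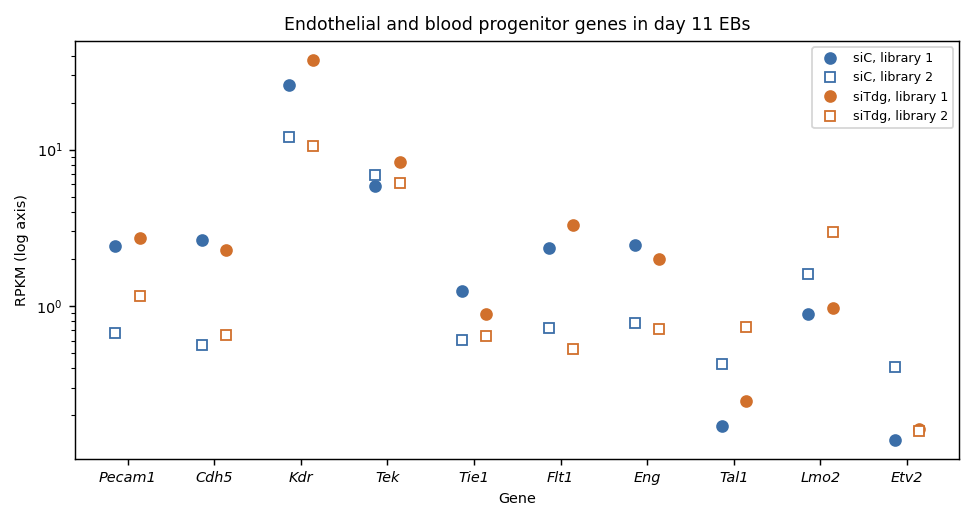
RPKM on a log axis of the 10 genes in the 4 libraries of day 11 EBs, 1 point per library, siC in blue and siTdg in orange, library 1 as filled circles and library 2 as open squares. Library number separates the points of Kdr, Flt1, Cdh5, Pecam1, Eng and Tie1, with library 1 higher, and of Lmo2 and Tal1, with library 2 higher, while siC and siTdg overlap for every gene.

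The other receptors were lower. Flt1 stood at 2.35 and 0.725 RPKM in siC and at 3.28 and 0.528 RPKM in siTdg. Tie1 had 1.25 and 0.608 RPKM in siC and 0.896 and 0.641 RPKM in siTdg, and Eng had 2.45 and 0.780 RPKM in siC and 1.99 and 0.712 RPKM in siTdg. In all of these the libraries numbered 1 were high and those numbered 2 low, in both groups.

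The junction genes followed the same order. Pecam1 was at 2.42 and 0.675 RPKM in siC and at 2.72 and 1.16 RPKM in siTdg. Cdh5, whose product is VE-cadherin, was at 2.65 and 0.564 RPKM in siC and at 2.27 and 0.652 RPKM in siTdg. The siC library 1 of Cdh5 rested on 503 reads and siC library 2 on 42.

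The transcriptional regulators Lmo2, Tal1 and Etv2 went the other way or were near the floor of detection. Lmo2 was at 0.894 and 1.61 RPKM in siC and at 0.965 and 2.97 RPKM in siTdg, high in libraries 2. Tal1 was at 0.172 and 0.426 RPKM in siC and at 0.247 and 0.737 RPKM in siTdg, from 34 to 57 reads, with both libraries 2 again above both libraries 1. Etv2 was at 0.140 and 0.409 RPKM in siC and at 0.165 and 0.158 RPKM in siTdg, from 3 to 8 reads, too few to order the libraries. Below Tek, the ranges over the 4 libraries of Pecam1, Cdh5, Flt1, Eng, Lmo2 and Tie1 overlapped, as did those of Tie1 with Tal1 and of Tal1 with Etv2, so neighbours in this part of the order could not be separated. In bulk RNA fewer cells of a type and less RNA per cell cannot be told apart.

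No member passed the test between siTdg and siC in day 11 EBs. For 8 of the 10 the mean reached 0.5 RPKM, the minimum for a test. Of these 8, 0 were called by limma at an adjusted p under 0.05, against 0.0% of the 13300 genes tested, of which 20 had an unadjusted p under 0.05. limma-voom on recovered reads also called 0. On data simulated from these 4 libraries, with library number counted in the spread, the main limma fit made no call at any of the fold changes tried. The absence of calls by that fit therefore does not bear on whether these genes differ. Lmo2 had the largest difference in size, at 0.40 log2 (SE 0.56) on the log2(RPKM + 0.5) scale, followed by Pecam1 at 0.32 (SE 0.64). Kdr differed by 0.18 (SE 0.80), Tek by 0.17 (SE 0.37) and Flt1 by 0.08 (SE 0.82). Cdh5 was at -0.04 (SE 0.75), Tie1 at -0.14 (SE 0.40) and Eng at -0.16 (SE 0.63). In this fit, which left library number in the spread, every one of these is smaller than its standard error. Each adjusted p was 1.00. With library number added as a block, the SE was 0.19 for Lmo2, 0.18 for Pecam1, 0.15 for Kdr and 0.16 for Tek. These were below the differences. It was 0.19 for Flt1 and Tie1 and 0.18 for Cdh5 and Eng, above the size of the differences. The lowest adjusted p among the 8 in that limma fit was 0.547, for Lmo2, with an unadjusted p of 0.0462. Other genes were called by that fit, and their count is given in the last section. The median over the 8 was 0.12 against 0.02 over all genes tested. The siC and siTdg libraries overlapped in all 8, where 9.29% of all genes tested did not overlap. Leaving out 1 library turned the sign of each of the 8. Such a fit sets a library of 1 number against libraries of both numbers, so the difference between numbers enters the change. The turned signs therefore do not measure how steady the siTdg difference is.

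**Figure D2:**
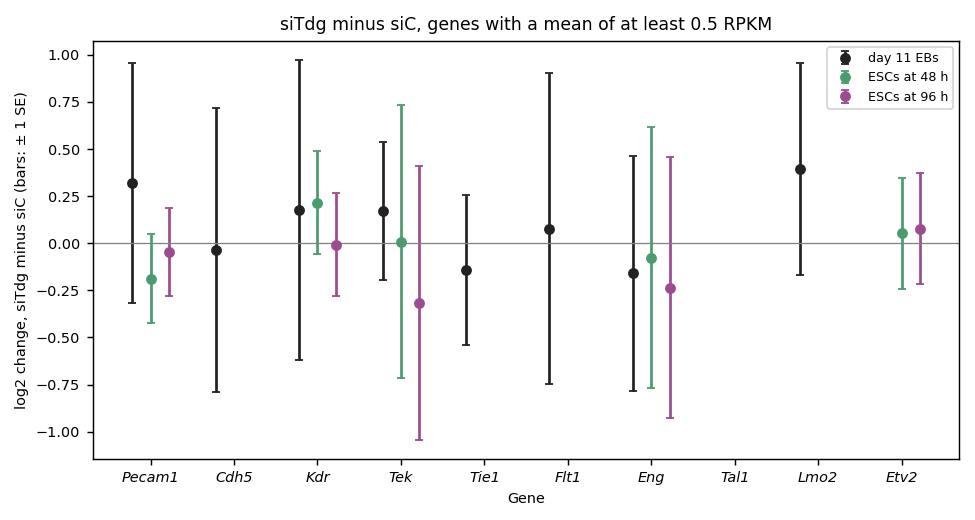
Log2 change, siTdg minus siC, from limma on log2(RPKM + 0.5), with bars of 1 SE, in day 11 EBs (black) and in ESCs at 48 h (green) and 96 h (purple), for genes that averaged 0.5 RPKM or more. Every bar crosses 0, and the longest are those of Flt1 (SE 0.82) and Kdr (SE 0.80) in EBs.

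Within each library number the siTdg minus siC difference kept its sign for some members. Pecam1 was higher with siTdg in both, by 0.14 for libraries 1 and 0.50 for libraries 2. Tal1, below the level for a test, was higher by 0.15 and 0.42. Lmo2 was higher by 0.07 and 0.72 as deposited, but scaled to own reads it was at 1.10 RPKM with siC and 1.09 RPKM with siTdg in libraries 1. Eng was lower by -0.24 and -0.08. Of the 8 tested, 2 were therefore higher in both and 1 lower in both as deposited, where 32.6% and 21.8% of all genes tested were. Scaled to own reads 1, Pecam1, was higher in both and 1, Eng, lower in both, where 19.9% and 35.2% of all genes were. For the VEGF receptor Kdr the 2 values were 0.54 and -0.18, for Flt1 0.41 and -0.25, and for Tek 0.49 and -0.15, positive in libraries 1 and negative in libraries 2. In the authors' deposited table of this comparison no member was called either: Pecam1 had a log2 change of 0.43 (SE 0.35), Lmo2 0.49 (SE 0.44) and Tal1 0.66 (SE 0.56), with adjusted p of 1.00 each, where 0.0745% of the 13424 genes with an adjusted p were called.

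The spread of these genes in EBs followed library number. Both libraries 1 were above both libraries 2 for 6 of the 8 tested, namely Flt1, Kdr, Cdh5, Pecam1, Eng and Tie1, where 42.9% of all genes tested were. The mean difference of library 1 minus library 2 was 1.55 log2 for Flt1, 1.43 for Kdr, 1.41 for Cdh5, 1.13 for Pecam1, 1.12 for Eng and 0.48 for Tie1. Only Lmo2 of the 8 had both libraries 2 above both libraries 1, at -0.92, where 42.5% of all genes did. Tek was at 0.09 with overlapping libraries. The median over the 8 was 1.13, against -0.0013 over all genes tested. Scaled to each library's own reads, 7 of the 8, now with Tek, had both libraries 1 higher, where 56.3% of all genes did, and the median was 1.45 against 0.38. Lmo2 stayed below 0 on that scale, at -0.60, again with both libraries 2 above, as for 30.3% of genes. These differences are a description with no test, since library number is not a condition of the study.

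**Figure D3:**
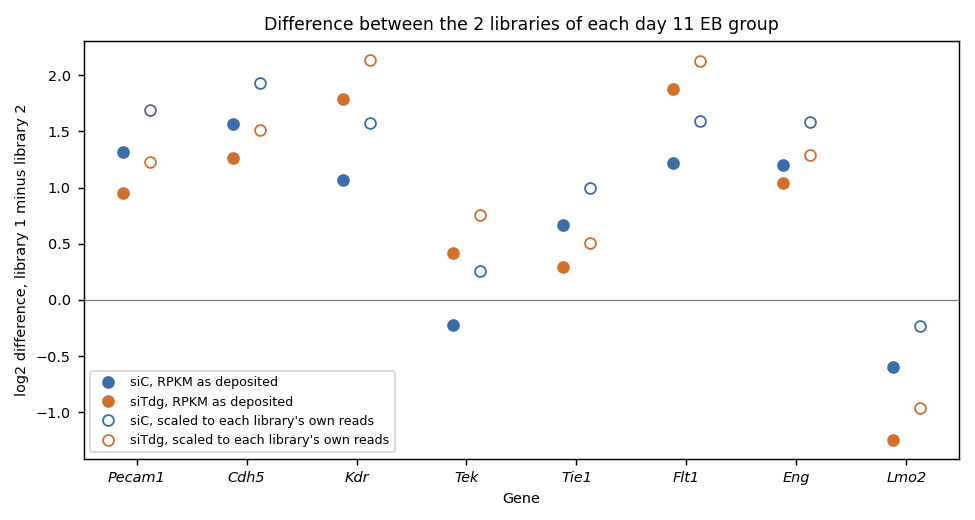
Log2 difference of library 1 minus library 2 in each day 11 EB group, for the 8 genes that averaged 0.5 RPKM or more, siC in blue and siTdg in orange, filled for values as deposited and open for values scaled to each library's own reads. Flt1, Kdr, Cdh5, Pecam1 and Eng lie near or above 1, Tek near 0 as deposited, and Lmo2 below 0 on both scales.

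Markers of other cell types also differed between EB libraries 1 and 2, and their part in the members' values was not tested. The 8 mural and stromal markers summed to 3949 and 4992 RPKM in libraries 1 of siC and siTdg and to 915 and 811 RPKM in libraries 2, and 6 of 7 tested were above in both libraries 1. The erythroid markers, 7 of 8 in the table, summed to 5.46 and 12.0 RPKM in libraries 1 and to 322 and 737 RPKM in libraries 2, with Hba-a1 at 0 in all 4. All 4 erythroid markers tested and 8 of 9 macrophage markers were above in both libraries 2, the latter 6 of 9 when scaled to own reads. The macrophage markers summed to 14.6 and 23.9 RPKM against 229 and 259 RPKM. Lmo2 and Tal1 were thus high in the libraries where red cell and macrophage markers were high, and Kdr and Flt1 in those where stromal markers were high. Sharing a side is common, as 42.9% of all genes tested were above in both libraries 1 and 42.5% in both libraries 2. Of 9 other blood progenitor genes tested, 4 were above in both libraries 1 and 3 in both libraries 2. Megakaryocyte markers summed to 14.2 and 13.0 RPKM in libraries 1 and 69.1 and 83.8 RPKM in libraries 2, with 2 of 4 tested above on each side. Cardiac markers summed to 121 and 97.9 RPKM against 203 and 447 RPKM, but 3 of 7 tested were above in both libraries 1 and 1 in both libraries 2. Myl7, an atrial myosin light chain picked out after its values were seen, had 167 and 364 RPKM of those sums in libraries 2. Yolk sac endoderm markers summed to 101 and 202 RPKM against 232 and 408 RPKM, with 3 of 8 above on each side. Neural markers summed to 19.4 and 19.4 RPKM against 2.88 and 3.41 RPKM, with 2 of 2 tested above in libraries 1. Keratinocyte and epithelial markers summed to 500.3 and 635 RPKM against 205 and 201 RPKM, with 4 of 5 above in libraries 1 and 1 in libraries 2. Pluripotency markers summed to 23.4 and 22.3 RPKM against 17.0 and 10.5 RPKM, with 4 of 6 above in libraries 1 and 2 in libraries 2.

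Other genes of the endothelial programme were mixed by library. Of 27 further endothelial genes 21 were tested in EBs, and 0 were called for siTdg in either direction. Both libraries 1 were above for 13 and both libraries 2 for 6, where 42.9% and 42.5% of all genes tested were. Scaled to own reads the counts were 14 and 4, where 56.3% and 30.3% of all genes were. The median of library 1 minus library 2 was 0.45 log2 as deposited. By the difference between siTdg and siC the highest were Icam2, an adhesion protein, at 0.53 (SE 0.51) and Cd34, a surface protein of endothelium and progenitors, at 0.45 (SE 0.46). The lowest were Gja4, a connexin of arterial endothelium, at -0.30 (SE 0.36) and the arterial ligand Efnb2 at -0.12 (SE 0.51). The difference between this list and the 10 genes was not tested.

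Of 20 further blood progenitor genes 9 were tested and 0 called. The highest were Spi1, a myeloid transcription factor, at 0.38 (SE 0.50) and Kit, the receptor for stem cell factor, at 0.01 (SE 0.45). The lowest were Zfpm1, a GATA cofactor, at -0.32 (SE 0.41) and Ldb1, the partner of Lmo2 and Tal1, at -0.30 (SE 0.43). Ldb1 stood at 50.8 and 49.7 RPKM in siC and at 44.1 and 37.8 RPKM in siTdg as deposited, and did not pass the limma test (adjusted p 1.00). Scaled to own reads its libraries overlapped, at 62.8 and 42.9 RPKM in siC and 49.6 and 33.1 RPKM in siTdg. Both libraries 1 were above both libraries 2 for 4 of the 9, and the reverse held for 3, where 42.9% and 42.5% of all genes tested were. Scaled to own reads the counts were 5 and 2, where 56.3% and 30.3% of all genes were.

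Ligands and partners of the receptors were taken in the same way. Of 20 listed, 19 were in the table, 16 were tested and 0 were called for siTdg. Both libraries 1 were above for 12 and both libraries 2 for 3, where 42.9% and 42.5% of all genes tested were. Scaled to own reads the counts were 13 and 2, where 56.3% and 30.3% of all genes were. These counts were not tested. Angpt1, the ligand of Tek, was at 23.1 and 14.2 RPKM in siC and at 31.2 and 17.4 RPKM in siTdg, a difference of 0.35 (SE 0.52). Vegfc, a ligand of VEGF receptors, was the next highest at 0.21 (SE 0.33). The lowest were Smad1, a BMP signal transducer, at -0.17 (SE 0.40) and Tgfb1 at -0.15 (SE 0.67). Nrp1, a co-receptor of Kdr picked out after its values were seen, had the highest level of the list, with 143 and 61.0 RPKM in siC and 194 and 53.3 RPKM in siTdg. Of 12 mesoderm genes 7 were tested and 0 called. The highest were Bmpr1a at 0.25 (SE 0.46) and Foxf1 at 0.06 (SE 0.35). The lowest were Foxc1 at -0.12 (SE 0.51) and Foxc2 at -0.15 (SE 0.53). Both libraries 1 were above in 6 of these 7 as deposited and in 7 scaled to own reads, beside the same shares of all genes. In the marker lists of other cell types 0 genes were called as well.

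Of the 10 genes 7 lay without overlap between the libraries of ESCs at 48 h and 96 h and those of EBs as deposited. The share of all genes that did so was not taken, so this count is no result about the 10 genes. The tables were scaled separately, so these levels stand side by side with no test. Pecam1 averaged 45.3 RPKM over the 8 libraries of ESCs at 48 h and 96 h against 1.74 RPKM in the 4 of EBs, 26.0 times as high, and Eng 30.6 against 1.48 RPKM, 20.6 times as high. These are the junction protein and the BMP co-receptor that other cells also carry. Kdr averaged 0.748 RPKM in ESCs and 21.5 in EBs, 28.8 times as high in EBs, and Flt1 0.0330 against 1.72 RPKM, 52.2 times as high. Tie1 was 10.2 times as high in EBs, at 0.850 RPKM, and Lmo2 8.81 times as high, at 1.61 RPKM. For all of these every EB library lay on 1 side of every ESC library. Cdh5 had from 0 to 2 reads in the 8 ESC libraries. Tal1 averaged 0.0714 RPKM in ESCs and 0.396 in EBs with overlapping libraries, which did not overlap when scaled to each library's own reads.

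Tek and Etv2 did not separate ESCs at 48 h and 96 h from EBs. Tek averaged 4.98 RPKM in these ESCs and 6.81 RPKM in EBs. In sorted ESCs it averaged 0.558 RPKM, and the lowest unsorted ESC library, at 2.23 RPKM, was above the highest sorted one, at 0.802 RPKM. Etv2 averaged 0.631 RPKM in ESCs and 0.218 RPKM in EBs with overlapping libraries. In sorted ESCs the tables used longer gene models for Kdr, by 1.409 times, and for Flt1, by 1.745 times, so their levels there are not compared with other tables.

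**Figure D4:**
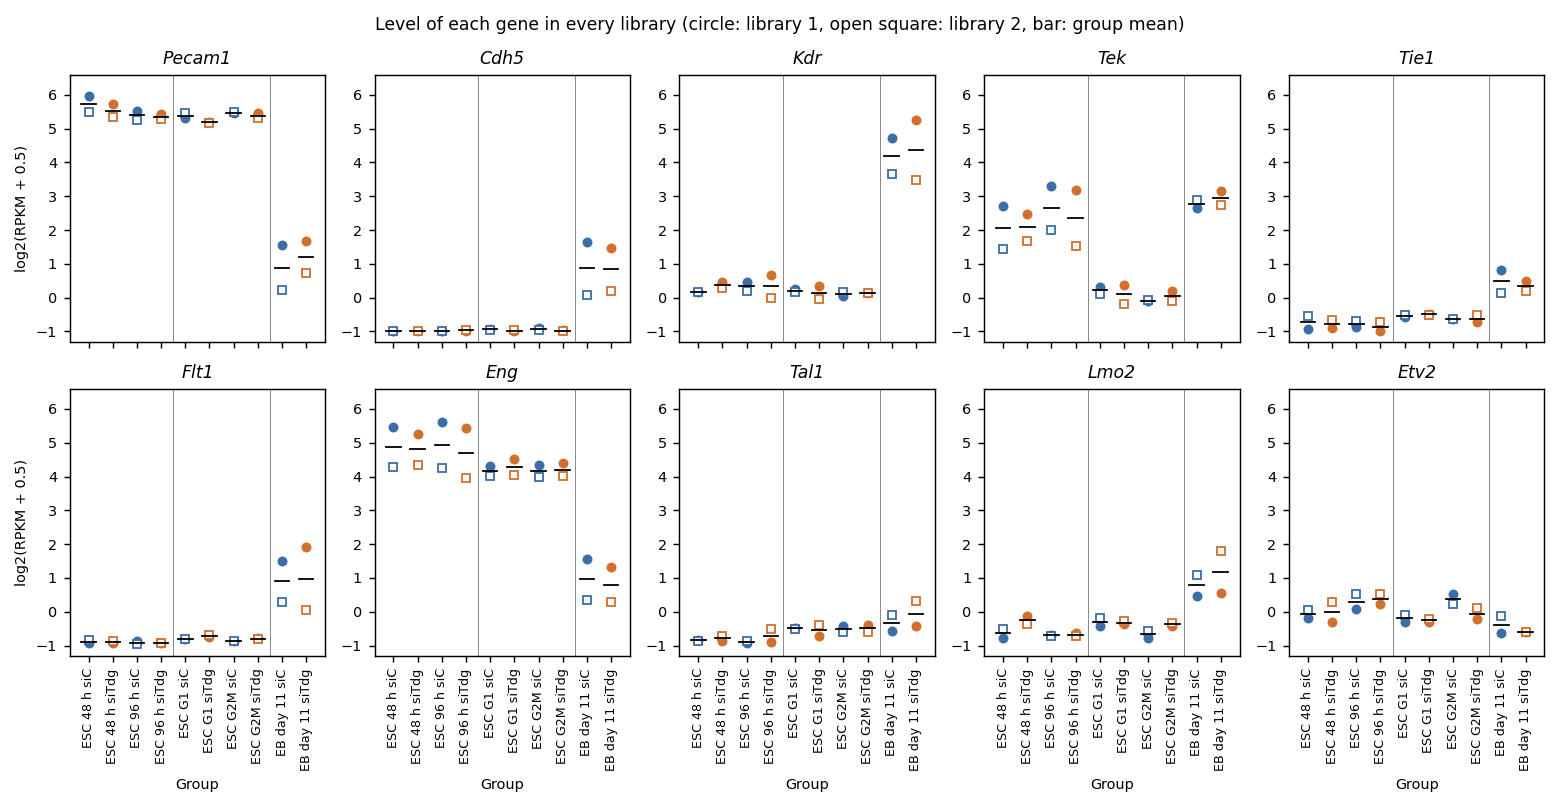
Level of the 10 genes as log2(RPKM + 0.5) in each of the 20 libraries, by group, library 1 as filled circles, library 2 as open squares and the group mean as a bar; vertical lines separate unsorted ESCs, sorted ESCs and EBs, whose tables were scaled separately. Pecam1 and Eng are high in ESCs, Kdr, Cdh5, Flt1, Tie1 and Lmo2 are high in EBs, and Tek is lower in sorted than in unsorted ESCs.

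In ESCs at 48 h, 5 of the 10 reached the level for a test, and 0 were called for siTdg, against 0.0% of 12190 genes, of which 54 had an unadjusted p under 0.05. limma-voom called 0 of them as well. The main fit did not call Tdg either, at 44.7 RPKM with siC and 10.3 with siTdg. The authors' deposited adjusted p for Tdg was 0.000176. On simulated data this fit called 23.9% of genes given a 2-fold change. The absence of calls among the 5 therefore says little on changes of that size or smaller. Pecam1 was at 61.9 and 44.0 RPKM in siC and at 52.4 and 40.0 RPKM in siTdg, a difference of -0.19 (SE 0.23). Kdr was at 0.615 and 0.623 RPKM in siC and at 0.892 and 0.713 RPKM in siTdg, higher by 0.21 (SE 0.27) with no overlap, where 8.71% of all genes were higher without overlap. Eng was at 43.6 and 19.1 RPKM in siC and at 37.9 and 19.8 RPKM in siTdg, so that library number again separated its values. Tek was at 6.0 and 2.23 RPKM in siC and at 5.10 and 2.70 RPKM in siTdg. Etv2 had from 9 to 22 reads and differed by 0.05 (SE 0.29). With library number as a block the SE was 0.12 for Pecam1 and 0.20 for Kdr, below the differences. For Eng, Tek and Etv2 the block SE was above the size of the differences. Lmo2, too low for the test, was at 0.0890 and 0.205 RPKM in siC and at 0.407 and 0.271 RPKM in siTdg, from 6 to 22 reads. Its libraries did not overlap, and limma without a filter gave a difference of 0.38 (SE 0.12) with an adjusted p of 1.00.

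In ESCs at 96 h, the same 5 genes were tested and 0 were called, against 0.0% of 12190 genes, of which 11 had an unadjusted p under 0.05. limma-voom called 0 at this time too. Eng was at 48.3 and 18.6 RPKM in siC and at 42.4 and 15.2 RPKM in siTdg, a difference of -0.24 (SE 0.69). Tek was at 9.39 and 3.53 RPKM in siC and at 8.52 and 2.35 RPKM in siTdg, a difference of -0.32 (SE 0.73). Both were lower with siTdg in either library number, where 29.4% of all genes tested were, though library number made the larger difference. Scaled to own reads Pecam1 joined them, where 34.2% of all genes were lower. Etv2 was higher in either number as deposited, where 31.4% of genes were. With library number as a block the SE was 0.15 for Eng and 0.21 for Tek, below the differences. For Pecam1, Kdr and Etv2 the block SE was above the size of the differences. Pecam1 was at 45.3 and 38.0 RPKM in siC and at 42.3 and 38.1 RPKM in siTdg. Kdr was at 0.890 and 0.657 RPKM in siC and at 1.10 and 0.494 RPKM in siTdg, and its libraries overlapped at this time. The difference of the siTdg effect between 96 h and 48 h was called for 0 of the 5, with an adjusted p of 1.00 for each. In the authors' deposited tables Pecam1 at 48 h had -0.19 (SE 0.09, p = 0.0313, adjusted p = 0.421). At 96 h, in the authors' deposited table, Eng had -0.24 (SE 0.10, p = 0.0148, adjusted p = 0.580) and Tek -0.35 (SE 0.16, p = 0.0305, adjusted p = 0.660). The authors' deposited tables called 1.35% of genes with an adjusted p at 48 h and 0.144% at 96 h.

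Library number left its mark in ESCs too. At 48 h both libraries 1 were above both libraries 2 for 3 of the 5, Pecam1, Eng and Tek, where 36.5% of all genes tested were, and at 96 h for 4 of the 5, now with Kdr, where 41.7% were. Etv2 had both libraries 2 above at both times, as did 35.0% and 43.5% of genes. The shares of the members are of 5 genes only, and they were not tested against the background.

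In sorted cells Pecam1, Kdr, Tek and Eng were tested between G2M and G1, and 0 of the 4 were called with either siRNA, where limma called 0.12% of 12462 genes with siC and 0.169% with siTdg. Pecam1 was at 39.1 and 43.3 RPKM in G1 and at 43.4 and 44.4 RPKM in G2M with siC. With siTdg it was at 36.5 and 35.3 RPKM in G1 and at 43.2 and 39.3 RPKM in G2M. As deposited its G2M libraries were above its G1 libraries with both siRNAs, by 0.09 (SE 0.09) and 0.20 (SE 0.09), as were those of 23.3% and 19.7% of genes, with limma's adjusted p of 0.917 and 0.554. Scaled to own reads the siC libraries overlapped, at 40.7 and 44.5 RPKM in G1 and 42.9 and 43.8 RPKM in G2M, while those with siTdg did not. Eng was between 15.3 and 22.4 RPKM in all 8 libraries and overlapped between phases. Tek was lower in G2M with siC, at 0.740 and 0.581 RPKM in G1 and 0.436 and 0.446 RPKM in G2M, a difference of -0.30 (SE 0.21, adjusted p 0.840), and overlapped with siTdg. Kdr was lower in G2M without overlap with siC, by -0.11 (SE 0.16), and overlapped with siTdg. Thus as deposited, with siC 1 of the 4 was higher and 2 were lower without overlap, against 23.3% and 17.8% of genes, and with siTdg 1 was higher and 0 lower, against 19.7% and 13.6%. Scaled to own reads, with siC 0 were higher and 2 lower, against 14.2% and 26.7% of genes. The difference of the phase effect between siTdg and siC was called for 0 of the 4, with an adjusted p of 1.00 for each.

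The transcriptional regulators were too low for the main test in sorted cells. Etv2 was at 0.315 and 0.430 RPKM in G1 and at 0.941 and 0.680 RPKM in G2M with siC, from 11 to 25 reads, and at 0.317 and 0.361 RPKM against 0.357 and 0.573 RPKM with siTdg. limma without a filter gave a siC difference of 0.58 (SE 0.16) with an adjusted p of 0.416. Lmo2 ran the opposite way with siC, at 0.253 and 0.385 RPKM in G1 and at 0.0831 and 0.177 RPKM in G2M, a difference of -0.38 (SE 0.11) with an adjusted p of 0.456. With siTdg its phases overlapped. Tal1 overlapped between phases with either siRNA. Tie1 and Flt1 were lower in G2M without overlap with both, from 12 to 28 reads for Tie1 and 13 to 31 for Flt1, with adjusted p of at least 0.695 without a filter. Among genes high enough for the main test, 17.8% with siC and 13.6% with siTdg were lower in G2M without overlap. No share was taken for genes as low as Tie1 and Flt1.

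Genes with a pattern like Cdh5 and Tal1 were ranked by Pearson's r of log2(RPKM + 0.5) over the 12 libraries of EBs and of ESCs at 48 h and 96 h, among 11381 genes that averaged 1 RPKM or more in EBs. The values describe likeness across libraries that share the split between ESCs and EBs and the library numbers, and carry no test. The 5 genes most like Cdh5 were Trabd2b (r = 0.998), Nkx2-3 (0.997), Casp12 (0.997), Hoxd11 (0.997) and Cadm3 (0.997). Trabd2b was at 5.02 and 1.01 RPKM in siC and at 4.81 and 0.793 RPKM in siTdg EBs, and at most 0.0104 RPKM in ESCs. The 5 most like Tal1 were Zfp81 (0.982), Fam92a (0.981), Cmpk1 (0.976), Pnpla8 (0.975) and Ppp1cb (0.973). Fam92a was at 19.3 and 45.8 RPKM in siC and at 21.9 and 64.7 RPKM in siTdg EBs, high in libraries 2 as Tal1 was.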

How the data were processed

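RNA from 20 libraries in 10 groups of 2 was analysed. Per the submitters' processing notes TopHat and DESeq2 and build mm9 were used, with no versions or roles given, and the sources used here do not name the annotation or counting tool. The authors deposited RPKM in 5 tables, each scaled separately. They also deposited log2 fold changes with standard errors, p-values and adjusted p-values, and mean normalised counts (a signal scale), with column names per the file headers. In the 96 h table these other columns have decimal commas, which were converted. The signs of the deposited 48 h and 96 h changes are turned to siTdg minus siC.

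Reads were recovered from RPKM and the authors' mean normalised counts: 100.0% of positive values were whole within 0.01 reads. The tests used log2(RPKM + 0.5) in limma 3.58.1 (R 4.3.3), which understates changes of low genes, keeping genes that averaged 0.5 RPKM or more, with eBayes, a trend and Benjamini-Hochberg adjustment over all genes tested, two-sided, at 0.05. One fit held the 4 EB libraries, one the 8 of 48 h and 96 h and one the 8 sorted libraries. Data were also simulated with library number counted in the spread. On these the 48 h and 96 h and the sorted fits made calls and the EB fit made none at any fold change tried. The members, the 13 other gene lists and the tests were chosen with earlier results of these data known. Named genes are the 10 members, Tdg, the 2 highest and 2 lowest of the endothelial, blood progenitor, ligand and mesoderm lists by EB change, and the 5 most like Cdh5 and Tal1, unless the text says otherwise. From the lists of cell type markers only counts and sums are given. Alternatives were pseudocounts of 0.1 and 1, other filters, quantile normalization, no trend, limma-voom, a replicate block and leaving out each library, with own-read scaling added after seeing the data. No 2 libraries of a group were within sampling noise (lowest chi-square per degree of freedom 19.4). Day 9 EBs and peak lists were not used, nor were 4 columns of RPKM that match no sample.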

Additional observations from a re-analysis of the deposited data

How the results depend on the processing

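No member was called in any comparison under any alternative run. Counts of all genes called moved with the replicate block: 150 in EBs (from 0), 614 for phases with siC (from 15) and 985 with siTdg (from 21). The block changed no member's call. Same-numbered libraries deviated together over all genes (r = 0.951 in EBs, 0.851 at 48 h, 0.934 at 96 h, 0.671 and 0.720 in sorted siC and siTdg). In EBs chi-square per degree of freedom was 20.6 and 26.8 between siC and siTdg libraries of the same number. Between the 2 libraries of a group it was 808 and 800. In sorted siC cells it was 24.4 and 13.8 between phases for the same number, against 24.0 and 19.4 within a phase. What same-numbered libraries shared is not stated in the labels. The names of the authors' deposited comparisons hold the word paired, without saying what was paired. A paired design is therefore not established, and the main fits here left library number in the spread. Whether the authors' fit held library number is not stated. For Kdr in EBs the authors' SE was 0.20, against 0.80 in the main fit and 0.15 with the block. The SEs of the authors and of the main fit are thus not alike. Without a filter 4 genes were called at 96 h (from 0), and with each deposited table alone 3 (siC) and 0 (siTdg) for phases. The cause was not tested. Leaving out 1 library, with the lone library assumed to vary like the others, gave 0 to 1 genes in EBs, 0 to 0 for siC phases and 0 to 8 for siTdg phases. Directions that reversed otherwise were Flt1 in EBs with limma-voom (-0.0065), Kdr at 96 h with a pseudocount of 1 (0.00064) and with quantile normalization (0.0202), and, for siTdg phases with quantile normalization, Kdr (0.0485) and Tek (0.0114). Depth limits Cdh5, Flt1, Tie1, Tal1, Lmo2 and Etv2 in ESCs, and Etv2 in EBs.

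Leaving out 1 library turned the direction of all 8 members in EBs. Each fit of this kind, here and below, sets a library of 1 number against libraries of both numbers. The difference between library numbers therefore enters these ranges. Log2 changes there ranged from -0.82 to 0.75 for Cdh5, -0.76 to 0.44 for Eng, -0.86 to 1.02 for Flt1, -0.72 to 1.07 for Kdr, -0.23 to 1.02 for Lmo2, -0.34 to 0.98 for Pecam1, -0.0378 to 0.38 for Tek and -0.48 to 0.19 for Tie1. At 48 h they ranged from -0.66 to 0.51 for Eng, -0.25 to 0.36 for Etv2, -0.43 to 0.0555 for Pecam1 and -0.62 to 0.64 for Tek, while Kdr kept its sign. At 96 h the ranges were -0.96 to 0.49 for Eng, -0.15 to 0.30 for Etv2, -0.35 to 0.33 for Kdr, -0.17 to 0.0774 for Pecam1 and -1.15 to 0.51 for Tek. For phases they were -0.19 to 0.17 for Eng with siC, and with siTdg -0.31 to 0.17 for Eng, -0.21 to 0.18 for Kdr and -0.33 to 0.24 for Tek. Pecam1 kept its sign in both phase comparisons.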
